A study of Mus musculus with 6 samples.

Results

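The enzymes that write and erase modifications on tubulin were examined in cultured mouse ependymal cells with and without Edf1. The group holds 10 genes chosen by symbol from the 22851 gene symbols of the counts table, and all 10 had enough counts to be tested. They are the glutamate ligases Ttll1, Ttll5, Ttll6 and Ttll9, the glycine ligase Ttll3, the deglutamylases Agbl2, Agbl5 and Agtpbp1, the acetyltransferase Atat1 and the deacetylase Hdac6. RNA came from radial glial cells of newborn mice on a C57BL/6J background, which had been kept without serum for 6 days. This treatment makes them differentiate into multiciliated ependymal cells, the ciliated lining of the brain ventricles. Cells of wild-type (WT) mice gave 3 libraries and cells of Edf1 knockout mice, generated by CRISPR/Cas9, gave another 3. The series' design text calls them biological replicates. The labels do not give the Edf1 allele, or say whether cells of several animals were pooled.

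Microtubules of motile cilia carry modifications that are added to the tubulin proteins after they are made. Tubulin tyrosine ligase-like (TTLL) enzymes attach glutamates or glycines to the tails of tubulin, where they set how dynein motors and severing enzymes work, and cytosolic carboxypeptidases (the Agbl genes and Agtpbp1) trim the glutamates again. Acetylation is different: Atat1 places an acetyl group on a lysine inside the microtubule, a mark of long-lived microtubules in and out of cilia, and Hdac6 removes it. Cilia of ependymal cells are rich in all these marks.

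The libraries held 13071766 to 28087006 counts. Edf1 itself fell from 82.8 ± 2.85 to 11.3 ± 1.72 CPM (counts scaled to the size of the library; mean ± SD, n = 3 each), and its range in the knockout lay below that in WT. All 12 markers of multiciliated ependymal cells that were listed were detected, and all 12 were lower in the knockout, with a summed level of 2380 to 2602 CPM in WT and 1429 to 1513 CPM in the knockout. Markers of other cells were present as well. The 10 microglial markers summed to 2046 to 2211 CPM in WT and 1308 to 1353 CPM in the knockout, and the 8 fibroblast and mural markers to 564 to 605 CPM and 726 to 812 CPM. The 8 neuronal markers summed to 252.8 to 330 CPM in WT and 273 to 290 CPM in the knockout, and the 8 radial glia and astrocyte markers to 9694 to 10200 CPM and 10660 to 11080 CPM. Most of these sums came from Map2 (259.5 CPM in WT) and Vim (6270 CPM in WT). Acta2 (474.8 CPM in WT) gave most of the fibroblast and mural sum. Single markers differed. At an adjusted p-value under 0.05 by edgeR, 2 of 7 tested neuronal markers were lower (Tubb3 and Dcx) and 0 higher. Of the 8 radial glia and astrocyte markers, 1 was lower (Gfap) and 3 were higher. Of the 10 microglial markers, 9 were lower and 0 higher. Of 7 tested fibroblast and mural markers, 7 were higher. Counts of Prl, a pituitary hormone gene, were 0 in all WT libraries and 198, 175 and 131 in the knockout ones, while the pituitary gene Fshb was at 0 in all 6. Of the other pituitary genes listed, Gh was at 0 in WT and at 15, 10 and 15 counts in the knockout. Cga and Pomc were higher in the knockout (log2 fold changes 4.55 and 1.97), and Lhb was lower (-1.37). Tshb had 4, 0 and 1 counts in WT and 8, 0 and 7 in the knockout, and Pitx1 had at most 1 in a library. The part of these cells in the results below was not tested. In bulk RNA, fewer ciliated cells and less RNA in each of them cannot be told apart.

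Loss of Edf1 was accompanied by lower RNA of most glutamylation enzymes, both ligases and deglutamylases, while the acetylation enzymes were near their WT level and the glycine ligase Ttll3 was slightly higher. Genes were called changed where edgeR's quasi-likelihood test gave an adjusted p-value under 0.05, with adjustment over the 14243 tested genes. By this rule 7 of the 10 enzymes fell, 1 rose and 2 were not called. Over all tested genes 26.9% were called, 14.2% lower and 12.7% higher. The libraries of the genotypes did not overlap for 8 of the 10 enzymes, 7 lower and 1 higher, against 43.3% of all tested genes, 22.1% lower and 21.3% higher. The median log2 fold change of the 10 enzymes was -0.26, against 0.0029 for all tested genes. The calls were of unequal strength: 5 of the enzymes that fell, Ttll9, Agbl2, Ttll5, Ttll1 and Agbl5, were called under all 14 other settings tried, and Ttll6, Agtpbp1 and Ttll3 were not.

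**Figure D1:**
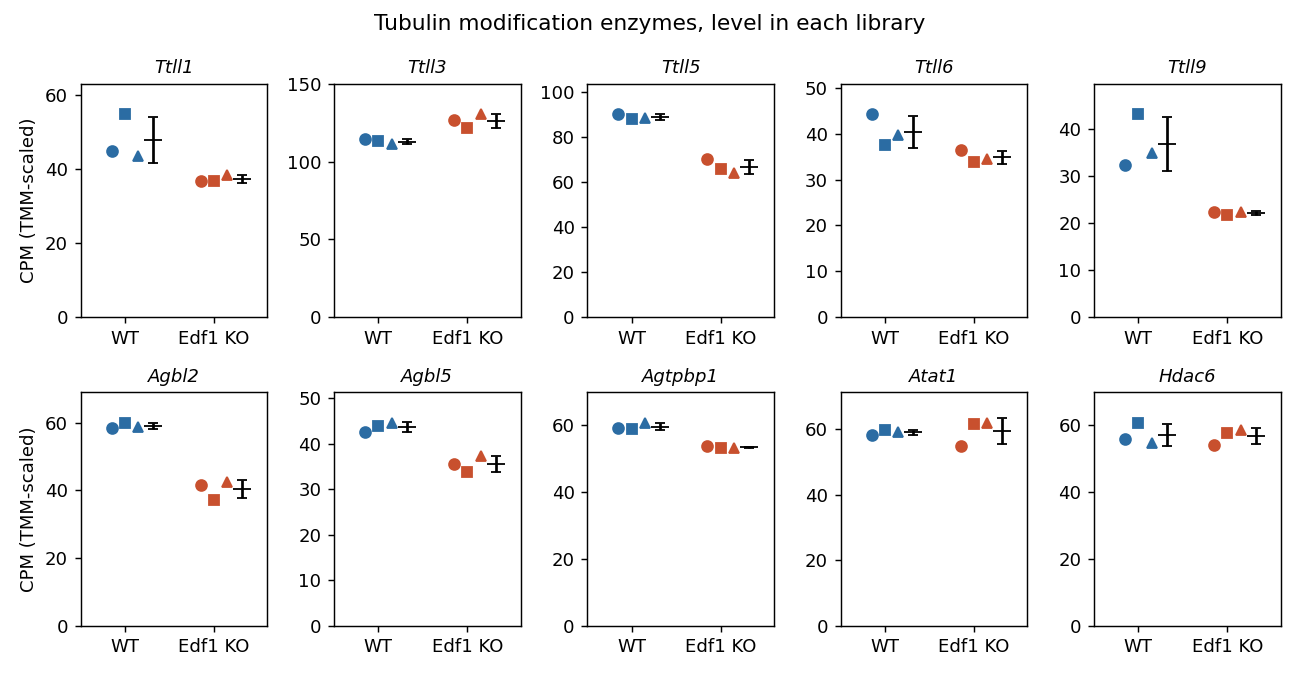
Level of the 10 enzymes in each library, in CPM on a linear axis from 0, with circles, squares and triangles for replicates 1, 2 and 3 and the mean ± SD (n = 3) beside each group. The knockout points lie below all WT points for the 7 enzymes that fell, above them for Ttll3, and among them for Atat1 and Hdac6.

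Promoters were read from RefSeq windows on GRCm38.p6, from 250 bases before to 50 after each annotated start, which were given for 9 of the 10 enzymes in 17 windows. RFX factors, regulators of cilia genes, bind a site known as the X-box, whose core letters are often GTTGCC, and forkhead factors such as Foxj1 bind letters such as TGTTTAC. Both strands were searched, and an X-box match can contain a GTTGCC match. The core GTTGCC was found for 6 of 9 enzymes, Ttll3, Ttll5, Ttll9, Agbl2, Agtpbp1 and Atat1, and for 14.1% of 27025 genes with a window. Enzymes that fell, rose and were not called are among the 6. TGTTTAC was found for Agbl5, and for 4.05% of all genes. A full X-box was found for Ttll9 alone among the 9 and for 1.75% of all genes. The 9 enzymes had 17 windows and the 27025 genes had 32851, so the enzymes had more windows per gene. The shares per gene are therefore not fully alike. The match of Ttll3 lay only in its second window, which starts at chr6:113392213, inside the annotated gene. These matches are descriptions of sequence and were not tested for binding.

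The stretches before the starts of Ttll9 and Agbl2, the enzymes with the largest falls, and of Hdac6, which was not called, are shown 5′ to 3′ on the strand of the gene, with matches to the searched letters in capitals. Ttll9 lies at chr2:152962235-152962487 on the plus strand and includes the first 3 transcribed bases, so that its X-box, GTTGCCGTAGCAAC, is whole. Counted with the first transcribed base as 0, that match runs from -11 to 2. Agbl2 is at chr2:90782477-90782726 on the plus strand, where the core letters lie from -80 to -75. Hdac6 is at chrX:7947890-7948139 on the minus strand and has no match.
Ttll9: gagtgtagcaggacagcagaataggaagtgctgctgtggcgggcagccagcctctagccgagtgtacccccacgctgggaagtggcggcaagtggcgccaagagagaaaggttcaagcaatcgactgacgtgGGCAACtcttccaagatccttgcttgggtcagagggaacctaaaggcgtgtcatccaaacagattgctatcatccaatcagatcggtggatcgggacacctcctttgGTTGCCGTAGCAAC
Agbl2: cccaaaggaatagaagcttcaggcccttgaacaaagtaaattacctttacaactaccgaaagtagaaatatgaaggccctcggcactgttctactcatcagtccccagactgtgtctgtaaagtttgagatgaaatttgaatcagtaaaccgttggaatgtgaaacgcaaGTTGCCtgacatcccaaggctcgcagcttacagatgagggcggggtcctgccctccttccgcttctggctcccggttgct
Hdac6: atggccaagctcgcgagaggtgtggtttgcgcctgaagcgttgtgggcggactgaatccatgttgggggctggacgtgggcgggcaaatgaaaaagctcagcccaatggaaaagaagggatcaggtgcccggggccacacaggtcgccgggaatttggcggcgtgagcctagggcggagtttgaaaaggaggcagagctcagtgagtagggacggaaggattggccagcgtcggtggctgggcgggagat

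Ttll9, a glutamate ligase known from sperm tails and motile cilia, fell most among the 10. Its level was 32.4, 43.3 and 34.9 CPM in WT replicates 1, 2 and 3, and 22.4, 21.7 and 22.4 CPM in the same order in the knockout. The groups did not overlap, and WT replicate 2 stood above the other WT libraries. On the log2 scale the difference was -0.72 (SE 0.1003), which leaves 0.608 of the WT level, with an adjusted p-value of 1.94e-04 by edgeR, and 3.81% of tested genes had a log2 fold change this low or lower. Without WT replicate 2 the log2 fold change was -0.60. Exons of Ttll9 share 129 bases with the antisense gene Gm14199, 3.70% of its exon length, and reads of the overlap cannot be assigned because the strand setting of the counting is not given in the sources used here.

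Ttll1 is the catalytic subunit of a tubulin polyglutamylase complex. Its WT libraries had 44.7, 54.7 and 43.4 CPM and its knockout libraries 36.6, 36.7 and 38.4 CPM. All knockout values were below all WT values, again with WT replicate 2 the highest. Ttll1 fell by 0.34 on the log2 scale (SE 0.085; adjusted p-value 0.00954 by edgeR). It came to -0.24 without WT replicate 2, with an adjusted p-value of 0.00475 by edgeR. Among the fits without 1 library the adjusted p-value by edgeR was highest without knockout replicate 1, at 0.0458 with a log2 fold change of -0.33.

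Ttll5, a ligase that adds glutamates to alpha-tubulin, varied little within each genotype. The WT libraries had 90.1, 87.8 and 88.4 CPM and the knockout libraries 70.1, 65.7 and 64.1 CPM. The libraries of each genotype lay close together and far from those of the other. Ttll5 fell by 0.42 on the log2 scale (SE 0.056; adjusted p-value 1.47e-04 by edgeR), and leaving out single libraries moved it only between -0.45 and -0.39.

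Ttll6 lengthens glutamate side chains in cilia. WT libraries gave 44.4, 37.5 and 39.7 CPM, against 36.5, 33.8 and 34.4 CPM without Edf1. The groups lay side by side without overlap, with WT replicate 2 close to knockout replicate 1. The difference of -0.22 on the log2 scale (SE 0.076) had an adjusted p-value of 0.0466 by edgeR, just inside the threshold. The call was lost without WT replicate 1 (-0.15, adjusted p-value 0.228 by edgeR), and also without WT replicate 3 or any of the knockout replicates, with adjusted p-values of 0.0640 to 0.151 by edgeR, and by DESeq2 (0.0629). In contrast to Ttll1 and Ttll9, the WT library with the least depth, replicate 2, had the lowest Ttll6 value of the WT libraries.

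Ttll3 starts glycine side chains, a modification found almost only in cilia and flagella. Its WT libraries stood at 114, 113 and 111 CPM and its knockout libraries at 127, 122 and 131 CPM. Every knockout library was above every WT library, by a small margin. Ttll3 rose by 0.16 on the log2 scale (SE 0.052), to 1.12 times the WT level, with an adjusted p-value of 0.0366 by edgeR. With fewer libraries it stayed between 0.14 and 0.19 in size, but the call was lost without WT replicate 1, WT replicate 3 or any of the knockout replicates (adjusted p-values 0.0539 to 0.145 by edgeR). Its annotated start lies within Arpc4, an actin nucleation gene on the same strand, and it shares 283 bases of exon with it, 5.61% of its own exon length. For Arpc4 the log2 fold change was -0.16, with an adjusted p-value of 0.0608 by edgeR.

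The 3 deglutamylases among the 10 enzymes fell as well. Agbl2, which removes glutamates from tubulin and is known in ciliated cells, was counted at 58.6, 60.03 and 58.7 CPM in the WT libraries and at 41.5, 37.3 and 42.5 CPM in those of the knockout. The WT libraries were nearly equal and the groups stood well apart. Agbl2 fell by 0.54 on the log2 scale (SE 0.064; adjusted p-value 5.41e-05 by edgeR), which leaves 0.686 of the WT level. Agbl5, the enzyme that removes the glutamate at the branch point of a side chain, had WT levels of 42.5, 44.03 and 44.6 CPM and knockout levels of 35.6, 33.7 and 37.3 CPM. Its groups did not overlap either, and its log2 fold change was -0.30 (SE 0.066, adjusted p-value 0.00543 by edgeR). Exons of Agbl5 share 677 bases with Ost4 on the opposite strand, 9.60% of the exon length of Agbl5.

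Agtpbp1, which shortens long glutamate chains and whose loss kills Purkinje neurons in mice, changed least among the enzymes that fell. The WT libraries gave 59.2, 58.8 and 60.7 CPM and the knockout libraries 53.6, 53.3 and 53.2 CPM. The groups were narrow and did not overlap. Agtpbp1 differed by -0.16 on the log2 scale (SE 0.054; adjusted p-value 0.0465 by edgeR). Its size was stable, from -0.17 to -0.14 over all settings, but the adjusted p-value was not: it was 0.107 by DESeq2, 0.0546 by edgeR when the replicate number was a block, and 0.113 to 0.141 by edgeR without WT replicate 1, WT replicate 3 or any of the knockout replicates.

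The acetylation enzymes gave no call. Atat1 stood at 58.1, 59.6 and 59.3 CPM in the WT libraries and at 54.998, 61.4 and 61.9 CPM in the knockout libraries, with the lowest and the highest library both in the knockout. Its log2 fold change was 0.014 with a 95% interval of -0.12 to 0.15, or 0.920 to 1.108 times the WT level (adjusted p-value 0.890 by edgeR). Hdac6 gave 55.8, 60.8 and 54.7 CPM with Edf1 and 54.2, 57.9 and 58.7 CPM without it. Its libraries were interleaved, with a log2 fold change of 0.00067 and an interval of -0.14 to 0.14 (adjusted p-value 0.995 by edgeR). These intervals do not reach the point estimates of the 7 enzymes that fell. Those estimates have intervals of their own, and the ones of Ttll6 (-0.39 to -0.058) and Agtpbp1 (-0.28 to -0.041) overlap with these. A direct test between the genes was not made. Exons of Atat1 share 644 bases with the antisense gene Gm16279, 14.0% of its exon length.

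**Figure D2:**
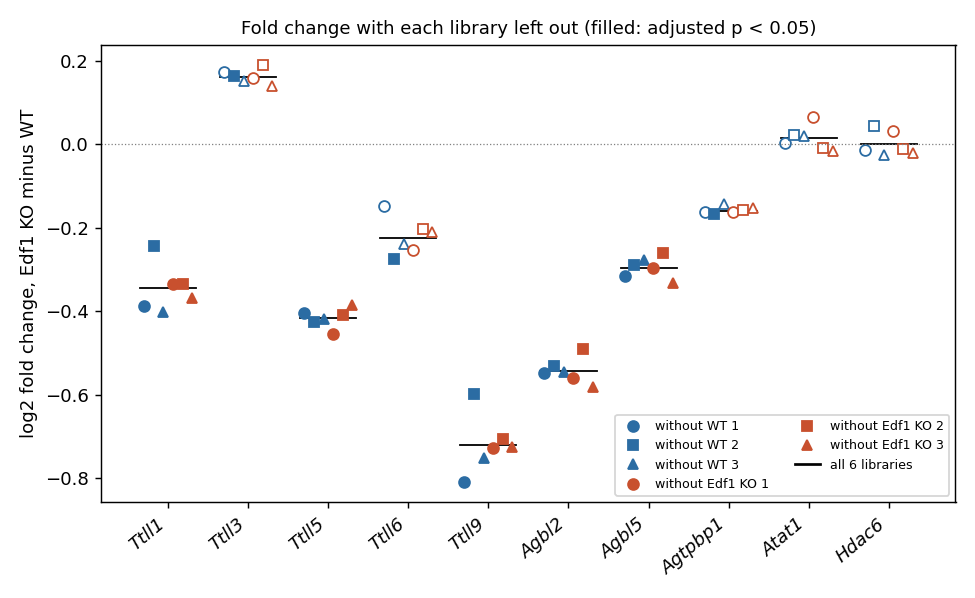
Log2 fold change (knockout minus WT) of each enzyme in the fits that leave out 1 library, with filled points where the adjusted p-value was under 0.05 and a line for the fit with all 6 libraries. Ttll1, Ttll5, Ttll9, Agbl2 and Agbl5 are filled throughout, Ttll3, Ttll6 and Agtpbp1 are filled only without WT replicate 2, and Atat1 and Hdac6 lie on both sides of 0.

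Levels of different genes were compared per kilobase of exon. By this measure Ttll3 was the most abundant of the 10 enzymes in WT, at 22.4 CPM per kb, followed by Ttll1 at 16.4 and Atat1 at 12.9, and Agtpbp1 was the least abundant at 2.73 CPM per kb. Per kilobase of the longest transcript Ttll3 was again first, at 35.6 CPM per kb, and Agtpbp1 last, at 7.29, but Atat1 stood above Ttll1, at 29.0 against 23.1. The 4 glutamate ligases summed to 43.02 ± 3.03 CPM per kb in WT and 32.4 ± 0.594 in the knockout, and the 3 deglutamylases to 17.8 ± 0.229 and 13.6 ± 0.657 (SD, n = 3). Both sums were lower in every knockout library than in every WT library, which follows from the same pattern in each of their genes. The ratio of the sums was 2.38, 2.59 and 2.27 in the WT libraries and 2.39, 2.47 and 2.31 in the knockout libraries, so the groups overlapped. These sums weight the genes by level and depend on the gene length used: per kilobase of the longest transcript the ratio was 2.18 ± 0.151 in WT and 2.06 ± 0.0669 in the knockout.

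The enzymes were then set against Foxj1, the transcription factor gene that marks motile ciliated cells. Foxj1 itself stood at 788 ± 43.4 CPM with Edf1 and at 523 ± 10.3 CPM without it. Its log2 fold change was -0.59, and only 5.18% of tested genes had one this low or lower. A higher ratio to Foxj1 in the knockout is therefore the rule for tested genes and not particular to these enzymes. The log2 ratio to Foxj1 was higher in the knockout for 9 of the 10 enzymes, and for 8 of them all knockout libraries were above all WT libraries. The shift of the ratio was 0.75 for Ttll3, 0.60 for Atat1 and 0.59 for Hdac6, and 0.17 to 0.43 for Ttll5, Ttll1, Agbl5, Ttll6 and Agtpbp1. Each of these 8 had an exact two-sided permutation p-value of 0.1, the smallest that 3 against 3 libraries allow, and 0.125 after Benjamini-Hochberg adjustment over the 10 ratios. Agbl2 and Ttll9 overlapped between the genotypes, at 0.041 (exact permutation p-value 0.5, adjusted 0.5) and -0.13 (exact permutation p-value 0.2, adjusted 0.222). All 10 ratios share the same Foxj1 values. The 12 listed ependymal markers, which include Foxj1, had log2 fold changes from -1.395 to -0.34, with a median of -0.87. The size and the sign of a shift therefore depend on the marker chosen, and no other marker was used as the reference.

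**Figure D3:**
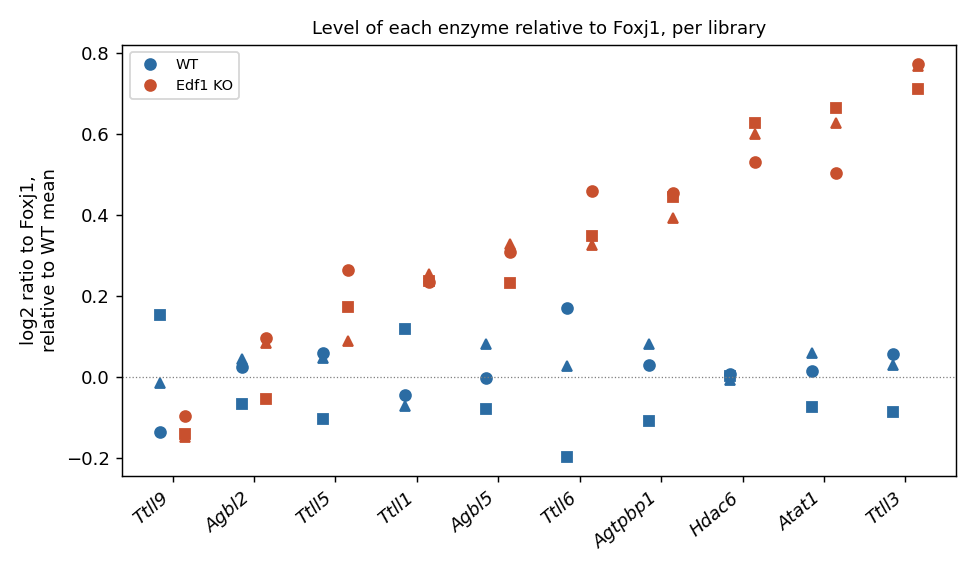
Log2 ratio of each enzyme to Foxj1 in each library, with the WT mean of that enzyme set to 0, and circles, squares and triangles for replicates 1, 2 and 3. The knockout points of Ttll9 and Agbl2 overlap with the WT points, and those of the other 8 enzymes lie above them, most for Ttll3.

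The other genes of the tubulin modification pathway were counted on lists written from general knowledge. Earlier results of these data were known when the lists were chosen, so the counts are descriptions. Of 30 such genes in the table, 28 had enough counts to be tested and 10 were called by edgeR, all of them lower. That is 35.7% of the 28. Over all tested genes 26.9% were called, 14.2% lower and 12.7% higher. At an unadjusted p under 0.05 the same test gave 12 lower and 3 higher, and DESeq2 and limma voom each called 10 lower and 0 higher. With the replicate number as a block, Ttll8, a glycine ligase like Ttll3, was also called higher (log2 fold change 0.30, adjusted p-value 0.0332 by edgeR). In the reported fit Ttll8 was not called (0.28, adjusted p-value 0.13 by edgeR), and its groups overlapped. The other listed glycine ligase, Ttll10, had few counts and was not called either. Its log2 fold change was -0.94 (adjusted p-value 0.177 by edgeR), with overlapping groups. The median over the 28 genes was -0.18.

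Partners of the ligases were among those that fell. Of 6 tested genes for subunits of the Ttll1 complex and for recruiters of TTLL enzymes, 4 were lower, against 14.2% of all tested genes. Tpgs2 and Nicn1, subunits of the complex, had log2 fold changes of -0.56 and -0.43, and Lrrc49, another subunit, had -0.22. Cep41, a ciliary protein needed for Ttll6 to enter cilia, fell from 36.1 ± 2.56 to 22.7 ± 1.54 CPM (log2 fold change -0.68), with non-overlapping groups. The subunit gene Tpgs1 was not called at -0.19 (adjusted p-value 0.0788 by edgeR).

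Of the other glutamate ligases 1 of 4 tested was called, and of the other deglutamylases 1 of 2, against 26.9% of all tested genes. Ttll13, a ligase that lengthens glutamate chains, fell from 7.53 ± 1.56 to 4.13 ± 0.849 CPM (log2 fold change -0.84), and the deglutamylase gene Agbl4 fell from 12.1 ± 0.499 to 8.20 ± 0.582 CPM (log2 fold change -0.57). Agbl3, a deglutamylase with a higher count than Agbl4, was not called: its WT level was 48.5 ± 4.59 CPM against 43.4 ± 3.68 CPM without Edf1, the groups overlapped, and its log2 fold change was -0.16 (adjusted p-value 0.169 by edgeR). Ttll4, Ttll7 and Ttll11 were tested and not called, and Ttll2 had at most 1 count in a library. Severing enzymes, which cut microtubules and respond to glutamylation, had 3 of 6 tested genes called lower, against 14.2% of all tested genes. They were Katnal2 at -0.42, Fignl1 at -0.39 and Katnal1 at -0.34. The other 3 had log2 fold changes above 0 and were not called. Fign, at only 1.05 CPM in WT, went the other way without a call. Its log2 fold change was 0.68 (adjusted p-value 0.0847 by edgeR), and its groups did not overlap. Of 7 genes of the tyrosination cycle and Ttll12, only the gene listed as 9530077C05Rik was called, at -0.43. It is matched here to the gene Matcap2 by a RefSeq synonym. Sirt2, another tubulin deacetylase, was not called (log2 fold change -0.033), like Hdac6.

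**Figure D4:**
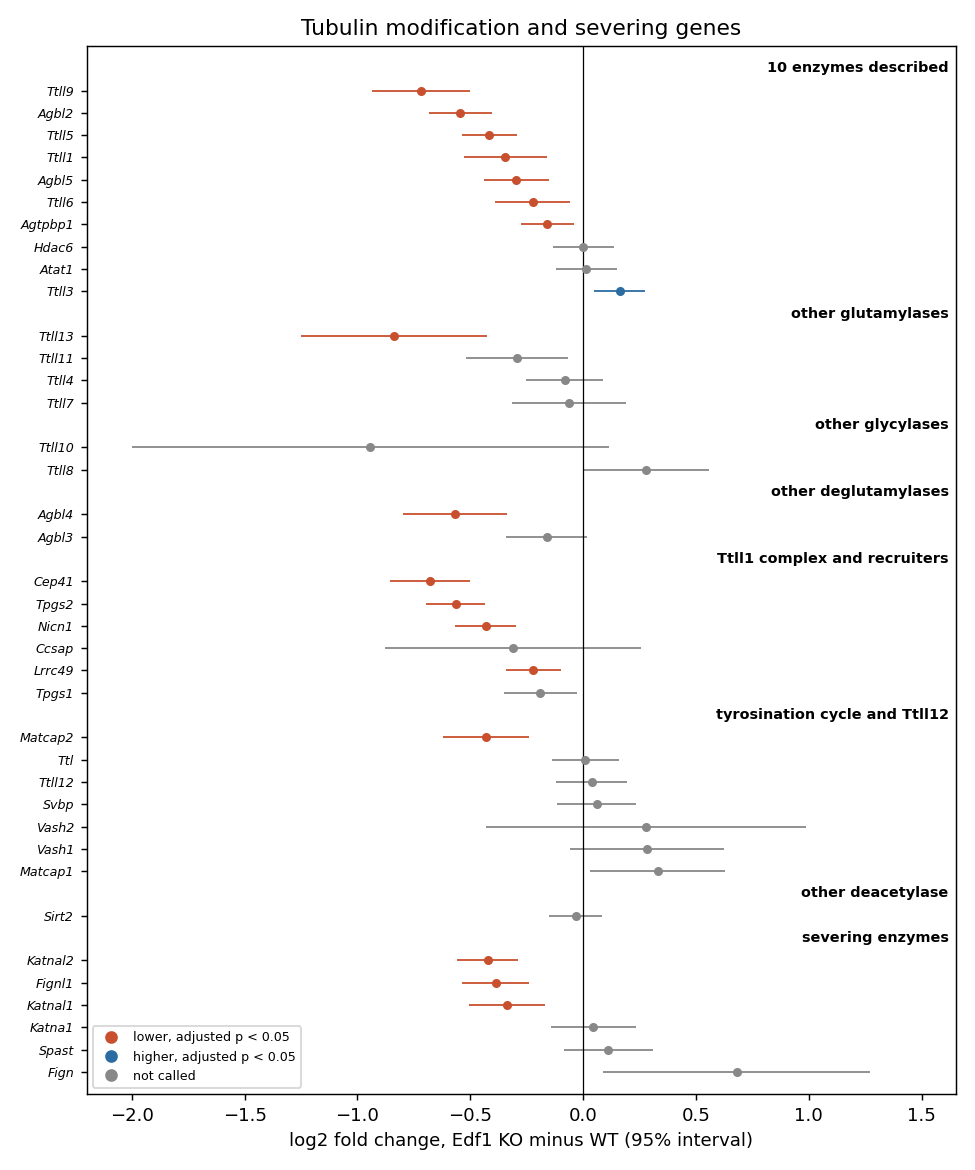
Log2 fold change (knockout minus WT) with its unadjusted 95% interval for the 10 enzymes and the 28 tested genes of the other lists, coloured by call. Of the 10 enzymes 7 lie below 0 with a call, and among the other genes the calls lie below 0, most of them in the lists of Ttll1 complex genes and recruiters and of severing enzymes.

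By GENCODE M21 on GRCm38, Ttll9 spans chr2:152962485-153008482 on the plus strand and Agbl2 spans chr2:90782727-90834437 on the same strand. Ttll5 spans chr12:85824659-86061893 and Ttll3 chr6:113389260-113414587, both on the plus strand. Of the transcript sequence of the 10 enzymes, read in 31-base words, at most 11.2% (Atat1) also occurs in another gene, 8.56% for Agbl5 and 4.84% for Ttll3. For the other 7 enzymes the share was 0 to 2.70%.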

How the data were processed

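Per the labels' protocols, TRIzol was used for the RNA and the MGIEasy mRNA kit for the libraries. Per the submitters' processing notes, the tools were FastQC 0.11.2, cutadapt 1.11 and HISAT2 2.1.0 and the build was GRCm38. The counting program, annotation and strand setting are not given in the sources used here. The authors deposited raw counts, whole numbers in 22851 rows named by gene symbol, of which 0 lack a name; each of the 6 libraries has its own column and 0 columns were unused.

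The counts were fitted in R 4.3.3 with edgeR 4.0.16: filterByExpr kept 14243 genes, library composition was adjusted with TMM factors (0.985 to 1.01), and the quasi-likelihood test compared 3 knockout with 3 WT libraries without covariates, adjusted over all of these genes by the Benjamini-Hochberg method. The SE was computed as the absolute log2 fold change over the root of F. CPM uses TMM-scaled library sizes, and the ratio to Foxj1 a pseudocount of 0.1 CPM. Overlap of the groups was judged on log2 CPM with a prior count of 2. Lengths, exon overlaps and shared 31-base words came from GENCODE M21.

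The alternatives were scaling by DESeq2 size factors or by library size alone, filters at 1 count in all or at a mean of 50 counts, DESeq2 1.42.0, limma 3.58.1 voom, a replicate block, each library left out, and a threshold of 0.01. The fits were checked on simulated counts. All 10 enzymes are named, and of the other lists called genes may be named. Tpgs1, Sirt2, Agbl3, Ttll8, Ttll10, Ttll4, Ttll7, Ttll11, Ttll2, Fign and Arpc4 were named after their values were seen. The enzymes and lists were chosen with earlier results of these data known, and the motifs after the fold changes were seen. Cstpp1 of the complex list was not matched to a symbol. A further listed gene is not reported here and is left out of the list counts. The p-values measure the spread between these libraries.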

Additional observations from a re-analysis of the deposited data

How the results depend on the processing

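The number of enzymes called was 8 in the reported fit, 6 by DESeq2 and with library size alone, and 5 at an adjusted p-value under 0.01, where 0 were called higher. The share of all tested genes called was 26.9% in the reported fit, 24.6% by DESeq2, 26.9% with library size alone and 15.5% at 0.01. Leaving out each library in turn gave 5 to 8 enzymes called and 0 or 1 called higher: 5 without WT replicate 1, WT replicate 3 or any of the knockout replicates, and 8 without WT replicate 2. The share over all tested genes moved as well. It was 20.6% without WT replicate 1, 25.7% without WT replicate 3, 18.5% to 18.8% without a knockout replicate, and 30.1% without WT replicate 2. The threshold of 0.01 also lowered the count over all genes from 3833 to 2213, with 1248 lower and 965 higher. The direction of the 2 enzymes with no call was not stable: Atat1 came to -0.0081 without knockout replicate 2 and -0.015 without knockout replicate 3, and Hdac6 to -0.0017 with the replicate block, -0.014 without WT replicate 1, -0.026 without WT replicate 3, -0.010 without knockout replicate 2 and -0.021 without knockout replicate 3. Over the fits that left out 1 library, Atat1 reached 0.065 and Hdac6 0.045 at most. The cause was not tested. The other 8 enzymes kept their direction under the 14 alternatives, though the calls of Agtpbp1, Ttll6 and Ttll3 were lost in 10, 9 and 6 of them, and the median log2 fold change of all tested genes was at most 0.016 under any scaling. The replicate number as a block gave 7 enzymes called, losing Agtpbp1 (-0.16, adjusted p-value 0.0546 by edgeR), and 1 of the other tubulin modification genes called higher, against 0 without it. With the block 28.5% of all tested genes were called. Deviations of same-numbered libraries from the mean of their genotype correlated at only 0.0693, 0.0604 and 0.0372, so no pairing was assumed. Levels per length moved for all 10 enzymes when the longest transcript replaced the union of exons, which changes their order.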
